A study of Mus musculus with 6 samples.

Results

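The 10 genes of the megakaryocyte and platelet programme described here were followed in haematopoietic stem cell (HSC) libraries from mouse fetal liver that lacked or kept Uqcrfs1. They were Pf4, Ppbp, Itga2b, Itgb3, Gp1ba, Gp1bb, Gp5, Gp9, Selp and F2rl2, chosen by symbol from a list, and all 10 were found among the 23951 genes of the count table. The study had 3 libraries labelled RISP knockout (KO) and 3 labelled RISP wild type (WT), both of C57BL/6 strain. RISP is the Rieske iron-sulfur protein of respiratory complex III, the product of Uqcrfs1. No source used here gives the allele, a Cre driver, the gestational age or the sorting gate. Nor is it stated that libraries of 1 group came from different embryos or litters, and each p-value then reflects library-to-library spread alone, which may be technical. The comparison of KO with WT asks how these transcripts stood in fetal HSCs without RISP.

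Megakaryocytes are the large marrow and liver cells that shed platelets. Platelets store the chemokines PF4 and PPBP in alpha granules beside P-selectin (Selp), and bind fibrinogen through the integrin alphaIIb-beta3 (Itga2b and Itgb3). They bind von Willebrand factor through the GPIb-IX-V complex (Gp1ba, Gp1bb, Gp9 and Gp5), and mouse platelets sense thrombin with PAR3, the F2rl2 product, as a helper of PAR4. Several of these genes are also read at low level in stem cells, where Itga2b (CD41) marks early blood progenitors, and P-selectin is also made by endothelial cells. GATA1 and ETS factors such as FLI1 are the best known activators of this gene set.

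Of the 10 genes, 2 were lower in KO (Pf4 and Gp9), 1 was higher (Selp) and 7 did not pass the test. The test was edgeR's quasi-likelihood F test on the deposited counts, with p-values adjusted by Benjamini-Hochberg over 12204 genes and a threshold of 0.05. Over all those genes 11.4% were called, 6.41% higher and 4.99% lower, and all 10 members were among the genes tested. The median log2 fold change of the members was -0.70, beside -0.02 over all genes tested. In CPM (counts scaled to a common library size), the 3 KO libraries lay wholly below the 3 WT libraries for Pf4, Itga2b and Gp9 and wholly above them for Selp. The other 6 members overlapped between the groups. Over all genes tested, 14.5% lay wholly below and 15.7% wholly above in KO. The count of called members was 1 without KO replicate 2 and 1 without WT replicate 1. In those fits the share called over all genes tested also fell, to 5.67% and 7.77%. On the deposited RPKM values, limma called 4.78% of genes with log2(RPKM + 1) and 4.59% with log2(RPKM + 0.1), and 0 of the 10 members on either scale. On both scales 3 members had an unadjusted p under 0.05.

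The promoters of the 3 genes that passed are shown because their levels moved in opposite directions, Pf4 and Gp9 down and Selp up. They come from RefSeq on GRCm38.p6, from 250 bases before to 50 bases after the annotated start, and run 5′ to 3′ on the gene's strand. Pf4 is at chr5:90772185-90772484, Gp9 at chr6:87777820-87778119 and Selp at chr1:164115014-164115313, each on the plus strand. Capitals mark GATAA, a core read by GATA factors, and AGGAAG, a core read by ETS factors, or their reverse complements TTATC and CTTCCT.
Pf4: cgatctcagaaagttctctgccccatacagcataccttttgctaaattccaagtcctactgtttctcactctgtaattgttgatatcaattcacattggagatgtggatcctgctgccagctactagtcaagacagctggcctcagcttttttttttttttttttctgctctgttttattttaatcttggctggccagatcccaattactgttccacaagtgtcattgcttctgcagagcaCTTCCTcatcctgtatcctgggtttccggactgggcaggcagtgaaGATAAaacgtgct
Gp9: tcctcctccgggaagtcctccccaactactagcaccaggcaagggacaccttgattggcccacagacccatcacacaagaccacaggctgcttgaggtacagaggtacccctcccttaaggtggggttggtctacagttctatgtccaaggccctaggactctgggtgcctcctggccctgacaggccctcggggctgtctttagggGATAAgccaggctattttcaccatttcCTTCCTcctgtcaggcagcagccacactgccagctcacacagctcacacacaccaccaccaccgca
Selp: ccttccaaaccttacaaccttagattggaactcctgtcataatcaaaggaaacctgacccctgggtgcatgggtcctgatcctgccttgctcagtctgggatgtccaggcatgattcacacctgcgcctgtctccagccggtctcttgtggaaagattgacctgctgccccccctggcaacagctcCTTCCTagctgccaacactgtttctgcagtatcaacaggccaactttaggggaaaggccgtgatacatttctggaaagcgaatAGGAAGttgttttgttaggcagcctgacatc
The Pf4 window held GATAA from base 38 (the start is base 1) and CTTCCT from base -9. The Gp9 window held GATAA from base -43 and CTTCCT from base -16. The Selp window held CTTCCT from base -64 and AGGAAG from base 20, and no GATAA in either direction. Among the 9 members in the table, 5 had a GATAA match, 8 an AGGAAG match and 5 both, counting both strands, and no 2 matches overlapped. GATAA matches were in Pf4, Gp1ba, Gp5 and Gp9, with negative estimates, and in F2rl2, with a positive estimate. Ppbp, Itga2b and Gp1bb, with negative estimates, had no GATAA match, nor had Selp. Of 32817 annotated promoters of the same length, 25.4% had a GATAA match, 35.4% an AGGAAG match and 9.19% both. These matches describe letters in a window and are not shown to be sites.

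The libraries held 12020128 to 14590844 counts in KO and 10191354 to 13189329 in WT, and 13083 to 13551 genes were detected in each. Uqcrfs1 had 60, 51 and 39 counts in KO replicates 1 to 3, against 771, 1320 and 791 in WT replicates 1 to 3, so each library matched its label. All 12 HSC markers were detected, with a summed level of 2136 to 2305 CPM in KO and 2429 to 2911 CPM in WT. Every KO sum was thus below every WT sum. Of the 12 markers, 3 were called lower in KO (Kit, Cd34 and Hlf) and 1 higher (Fgd5) (edgeR). WT replicate 3 stood apart, with 10 macrophage markers summing to 948 CPM, against 78.4 and 176 CPM in the other WT libraries and 35.3 to 81.1 CPM in KO. Its 10 endothelial markers summed to 1192 CPM, against 330 and 481 CPM in the other WT libraries and 332 to 363 CPM in KO. Of the 5 tested mast cell and basophil markers 1 was higher in KO, and the summed list stood at 27.0 to 68.4 CPM in KO and 9.42 to 15.8 CPM in WT. In bulk RNA, fewer cells of a type and less RNA per cell cannot be told apart.

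Pf4, the platelet factor 4 chemokine, had the largest estimated change of the 10 genes. It stood at 0.649, 2.13 and 4.10 CPM in KO replicates 1 to 3 (9, 32 and 52 counts), against 15.8, 7.08 and 47.0 CPM in WT replicates 1 to 3 (158, 76 and 609 counts). Every KO library was below every WT library, and WT replicate 3 was far above the other WT libraries. The mean was 2.29 ± 1.73 CPM in KO and 23.3 ± 21.0 CPM in WT (SD, n = 3 each), a log2 fold change of -3.35 (SE 0.82, edgeR, adjusted p = 0.0288). Without WT replicate 3 the log2 fold change was -2.32 (edgeR, adjusted p = 0.0527). It was -3.56 without WT replicate 1 and -3.30 without KO replicate 2 (edgeR, adjusted p = 0.0658 and adjusted p = 0.199), and limma-voom gave -3.38 (adjusted p = 0.165).

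The WT library with the most Pf4 was also the one with the most macrophage and endothelial transcript. All 10 macrophage markers were tested, of which edgeR called 0 (3 at an unadjusted p under 0.05) and DESeq2 2, and their summed level was lower in each KO library than in WT replicates 1 and 3, with WT replicate 2 at 78.4 CPM inside the KO range. Csf1r, the macrophage growth factor receptor, led that list. Of 8 tested erythroid markers, 4 were called lower in KO, with Hbb-b1 and Hba-a1 listed at 0 in every library. The summed erythroid list was 83.5 to 143.6 CPM in KO and 286 to 594 CPM in WT, lower in each KO library as Pf4 was. Within WT the erythroid list was at 594, 286 and 313 CPM in replicates 1 to 3, where Pf4 was at 15.8, 7.08 and 47.0 CPM. The part of these cell types in the Pf4 difference was not tested.

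Ppbp, the gene of the other alpha granule chemokine and a close neighbour of Pf4 on chromosome 5, was near the detection limit. It had 1.73, 0 and 0 CPM in KO replicates 1 to 3 (24, 0 and 0 counts), against 2.10, 0.0931 and 2.16 CPM in WT replicates 1 to 3 (21, 1 and 28 counts). KO replicate 1 was close to the higher WT libraries, so the groups overlapped. A count of 0 allows up to 0.200 CPM in KO replicate 2 and 0.237 CPM in KO replicate 3, counting error alone. Its log2 fold change was -1.32 with an SE of 1.70 (edgeR, adjusted p = 0.693). The estimate rested on KO replicate 1, being -7.17 without it (edgeR, adjusted p = 0.157), and it ran from -1.87 to -0.73 in the other fits without 1 library. Limma-voom gave -2.77 (adjusted p = 0.466).

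Selp was the only member whose call held whichever library was left out. P-selectin is the adhesion receptor that moves from alpha granules to the platelet surface and binds PSGL-1 on leukocytes. Selp stood at 25.5, 19.6 and 29.0 CPM in KO replicates 1 to 3 (354, 295 and 368 counts), against 10.1, 7.63 and 7.09 CPM in WT replicates 1 to 3 (101, 82 and 92 counts). Each KO library was above each WT library, with little spread inside either group. The mean was 24.7 ± 4.74 CPM in KO and 8.28 ± 1.62 CPM in WT (SD, n = 3 each). The log2 fold change of Selp was 1.58 (SE 0.35, edgeR, adjusted p = 0.00511), or 2.99-fold. Without 1 library the log2 fold change was 1.45 to 1.75 and the highest adjusted p was 0.0453 (edgeR). With limma on log2(RPKM + 1) it was 1.10 (adjusted p = 0.0513).

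Selp is an endothelial gene as well, so the endothelial list was set beside it. Of 9 tested endothelial markers, edgeR called 2 (Egfl7 higher and Tek lower in KO, with 5 at an unadjusted p under 0.05) and DESeq2 called 6. Sele, the endothelial selectin, had 0 counts in every library. The summed endothelial list was not above WT replicate 1 or WT replicate 3 in any KO library. WT replicate 2, at 330 CPM, was just below all KO libraries, at 332 to 363 CPM. That sum was led by Tie1, Tek and Egfl7, and its genes did not move together. Cdh5, Plvap, Stab2 and Tek were lower in every KO library than in any WT library, and Egfl7 was higher. Tie1, Kdr, Emcn and Lyve1 overlapped between the groups. Stab2 was at 5.68 to 10.9 CPM in KO, against 24.1 CPM in WT replicate 2. The part of endothelial cells in the Selp difference was not tested. The mast cell and basophil list, at 27.0 to 68.4 CPM in KO and 9.42 to 15.8 CPM in WT, was higher in each KO library as Selp was, and its part in the Selp difference was not tested. The neighbouring gene F5 lies just downstream of Selp on the same strand and encodes coagulation factor V, another alpha granule protein. F5 was lower in KO, at 28.8, 25.6 and 29.7 CPM in KO replicates 1 to 3 and 59.6, 37.1 and 52.5 CPM in WT replicates 1 to 3, a fall by 0.83 on the log2 scale (SE 0.23, edgeR, adjusted p = 0.0219). These adjacent genes stood in opposite directions, but F5 passed without 1 library only when that was WT replicate 2 (edgeR, highest adjusted p = 0.119). The annotation also has Gm16587 and Gm16548 overlapping Selp on the opposite strand. Gm16548 had at most 6 counts in any library, but its deposited RPKM was 6.16, 1.25 and 11.5 in KO replicates 1 to 3 and 1.82, 1.87 and 2.27 in WT replicates 1 to 3. In KO replicates 1 and 3 that was above the RPKM of Selp itself, at 4.84 and 4.04, and the RPKM of 1 CPM of Selp was lowest, at 0.139, in KO replicate 3. How reads were shared between Selp and Gm16548 was not tested, and no source used here gives the strand setting of the counting.

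**Figure D1:**
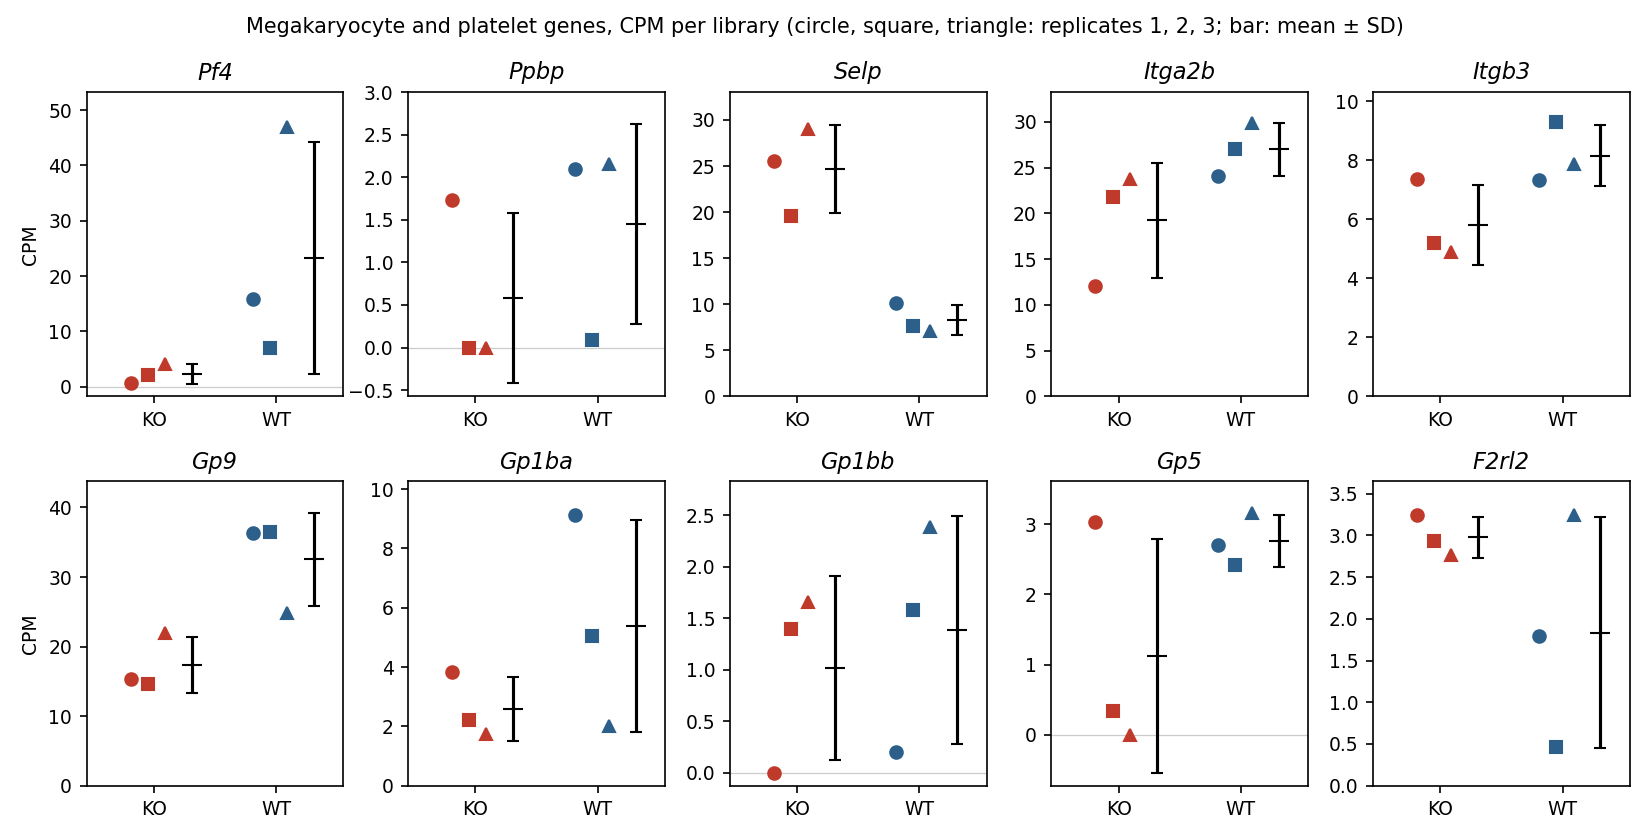
CPM of each of the 10 genes (y axes, linear, 1 scale per gene) in the 3 KO libraries (red) and the 3 WT libraries (blue), with the mean ± SD of each group as a black bar. Selp is at 19.6 to 29.0 CPM in KO and 7.09 to 10.1 CPM in WT, while Pf4 and Gp9 are lower in every KO library than in any WT library.

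The integrin pair was lower on average in KO but did not pass the test. Itga2b, the alphaIIb chain that pairs only with beta3, stood at 12.1, 21.8 and 23.8 CPM in KO replicates 1 to 3 (168, 327 and 302 counts), against 24.1, 27.0 and 29.9 CPM in WT replicates 1 to 3 (240, 290 and 388 counts). KO replicate 1 was lowest, and KO replicate 3 was just under the lowest WT library. The mean was 19.2 ± 6.25 CPM in KO and 27.0 ± 2.93 CPM in WT (SD, n = 3 each), with a log2 fold change of -0.49 and an SE of 0.30 (edgeR, adjusted p = 0.342), or -0.24 without KO replicate 1. Itgb3, the beta3 chain, stood at 7.36, 5.19 and 4.89 CPM in KO replicates 1 to 3, against 7.32, 9.31 and 7.86 CPM in WT replicates 1 to 3. KO replicate 1 was level with WT replicate 1, and the log2 fold change was -0.49 with an SE of 0.54 (edgeR, adjusted p = 0.634). Beta3 also pairs with the alphaV chain in many cell types, and Itgav was at 29.3 ± 7.17 CPM in KO and 42.3 ± 13.1 CPM in WT (SD, n = 3 each, edgeR, adjusted p = 0.213).

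Of the GPIb-IX-V complex, Gp9 was measured best and was lower in KO. Gp9, the small subunit that stabilises the complex at the surface, stood at 15.4, 14.6 and 22.0 CPM in KO replicates 1 to 3 (213, 219 and 279 counts), against 36.3, 36.5 and 24.8 CPM in WT replicates 1 to 3 (362, 392 and 322 counts). KO replicate 3 and WT replicate 3 came near each other without overlap. The mean was 17.3 ± 4.08 CPM in KO and 32.5 ± 6.68 CPM in WT (SD, n = 3 each), a log2 fold change of -0.91 (SE 0.29, edgeR, adjusted p = 0.0450). This call was close to the threshold. It was lost without KO replicate 1, KO replicate 2, WT replicate 1 or WT replicate 2 (edgeR, adjusted p = 0.124, 0.170, 0.139 and 0.134), at log2 fold changes of -0.83, -0.80, -0.82 and -0.82.

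WT replicate 3, the library with the most Pf4, had the least Gp9 of the WT group. Without it the log2 fold change of Gp9 was -1.07, and without KO replicate 3 it was -1.12. The macrophage and endothelial lists were highest in that library. The erythroid list was lower in all 3 KO libraries, as Gp9 was. The part of these cell types in the Gp9 difference was not tested.

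The 3 partners of Gp9 had few counts and overlapped between the groups. Gp1ba, the subunit that binds von Willebrand factor, stood at 3.82, 2.20 and 1.74 CPM in KO replicates 1 to 3 (53, 33 and 22 counts), against 9.12, 5.03 and 2.0 CPM in WT replicates 1 to 3 (91, 54 and 26 counts). WT replicate 3 lay inside the KO range, and the log2 fold change was -1.05 with an SE of 0.83 (edgeR, adjusted p = 0.476), or -0.44 without WT replicate 1. Gp5 stood at 3.03, 0.333 and 0 CPM in KO replicates 1 to 3 (42, 5 and 0 counts), against 2.71, 2.42 and 3.16 CPM in WT replicates 1 to 3 (27, 26 and 41 counts). The WT libraries were close to each other while KO replicate 1 was as high as WT and the other KO libraries were low, with a log2 fold change of -1.29 and an SE of 1.32 (edgeR, adjusted p = 0.602). Without KO replicate 1 the log2 fold change of Gp5 was -3.94 (edgeR, adjusted p = 0.198), without KO replicate 2 it was -0.86 and without KO replicate 3 it was -0.71. Limma-voom gave -2.93 (adjusted p = 0.262).

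Gp1bb, the beta chain that is disulfide-linked to GPIb alpha, could not be placed in either direction. It stood at 0, 1.40 and 1.66 CPM in KO replicates 1 to 3 (0, 21 and 21 counts), against 0.200, 1.58 and 2.39 CPM in WT replicates 1 to 3 (2, 17 and 31 counts). The first library of each group was near 0. The log2 fold change was -0.45 with an SE of 1.49 (edgeR, adjusted p = 0.895), and it was 0.13 without KO replicate 1 and 0.18 without WT replicate 3. Gp1bb on chromosome 16 overlaps Sept5 on the same strand in the annotation, so reads in the shared stretch cannot be told apart. Sept5 had 2, 3 and 7 counts in KO replicates 1 to 3 and 3, 32 and 1 counts in WT replicates 1 to 3, which did not follow the counts of Gp1bb. In WT replicate 2, where Sept5 was highest, the RPKM of 1 CPM of Gp1bb was 0.889. It was 0.450 to 0.503 in the other libraries with Gp1bb counts, and how reads were shared was not tested.

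F2rl2, the PAR3 gene, was the other member with a positive estimate. It stood at 3.24, 2.93 and 2.76 CPM in KO replicates 1 to 3 (45, 44 and 35 counts), against 1.80, 0.465 and 3.24 CPM in WT replicates 1 to 3 (18, 5 and 42 counts). The KO libraries were close to each other and WT replicate 3 was level with the highest of them. The log2 fold change was 0.69 with an SE of 1.06 (edgeR, adjusted p = 0.748), and it was 0.24 without WT replicate 2, 1.39 without WT replicate 3 and -0.05 with limma on log2(RPKM + 1). F2rl2 lies on the opposite strand within Iqgap2, a gene at 402 ± 39.2 CPM in KO and 429 ± 13.4 CPM in WT (SD, n = 3 each). Of the other thrombin receptors, F2rl3, the PAR4 gene that signals in mouse platelets, was at 21.7 ± 5.71 CPM in KO and 23.0 ± 8.90 CPM in WT (SD, n = 3 each, edgeR, adjusted p = 0.914). F2r, the PAR1 gene, was at 83.2 ± 8.87 CPM in KO and 113 ± 12.8 CPM in WT (SD, n = 3 each, edgeR, adjusted p = 0.0719).

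**Figure D2:**
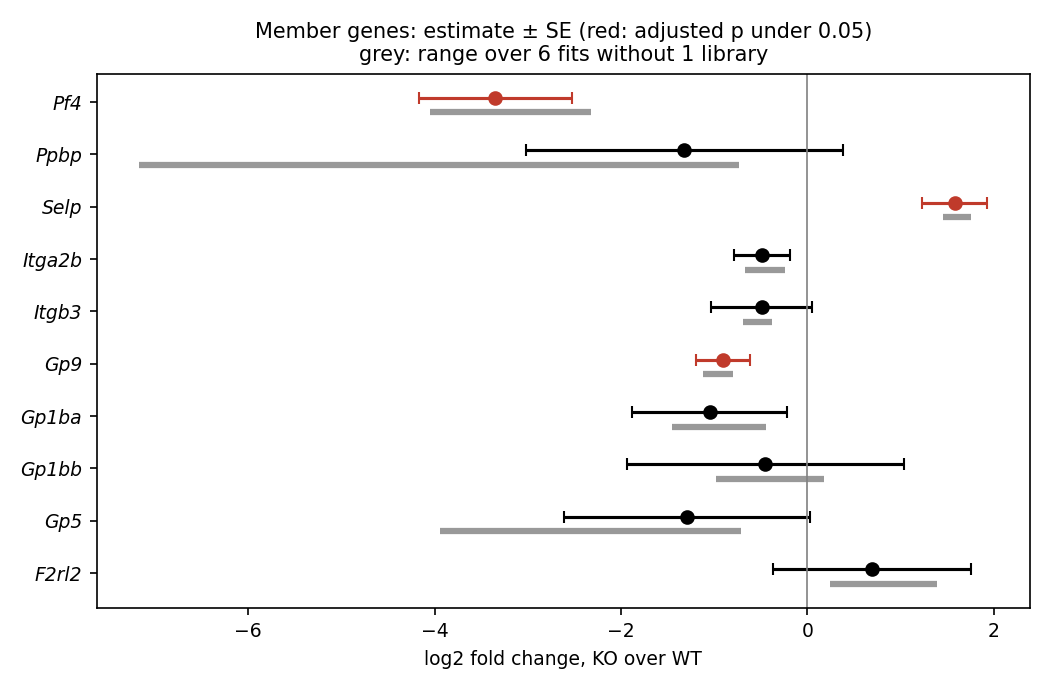
Log2 fold change of KO over WT (x axis) for each of the 10 genes, as the edgeR estimate ± SE, in red where the adjusted p was under 0.05, with the range of the 6 fits without 1 library in grey. Selp lies at 1.58 with a narrow grey bar, Pf4 at -3.35 and Gp9 at -0.91, and the grey bar of Gp1bb crosses 0.

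Levels between genes were compared on the deposited RPKM scale, which divides by gene length. In KO the order of the mean RPKM was Gp9, Pf4, Selp, Itga2b, F2rl2, Gp1ba, Ppbp, Itgb3, Gp1bb and Gp5. In WT it was Pf4, Gp9, Itga2b, F2rl2, Ppbp, Gp1ba, Selp, Itgb3, Gp5 and Gp1bb. Gp9 averaged 25.3 ± 7.62 RPKM in KO and 46.1 ± 9.92 RPKM in WT, and Pf4 averaged 4.63 ± 3.50 RPKM in KO and 49.8 ± 44.2 RPKM in WT (SD, n = 3 each). In KO every Gp9 value was above every value of the other 9 genes, while Pf4, Selp and Itga2b overlapped. In WT the ranges of Pf4 and Gp9 overlapped, both stood clear of the other 8, and Itga2b stood clear of F2rl2.

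Selp was rank 3 in KO at 4.56 ± 0.447 RPKM and rank 7 in WT at 1.61 ± 0.320 RPKM (SD, n = 3 each). Its WT range overlapped those of Gp1ba and Itgb3. The lowest 5 genes in KO overlapped in RPKM, as did Itgb3, Gp5 and Gp1bb in WT. Within the GPIb-IX-V complex the subunits were uneven, with a Gp9 to Gp1ba ratio of RPKM of 16.4, 15.4 and 52.4 in KO replicates 1 to 3 and 20.0, 32.9 and 20.1 in WT replicates 1 to 3. Itga2b to Itgb3 was 2.38, 6.05 and 8.45 in KO replicates 1 to 3 and 4.95, 4.31 and 5.81 in WT replicates 1 to 3. The ranks of F2rl2, Gp1ba and Gp1bb are uncertain, since the RPKM of 1 CPM varied 5.69-fold, 3.08-fold and 1.97-fold between libraries for these genes and 1.75-fold for Selp, against 1.11-fold for Gp9 and Pf4.

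**Figure D3:**
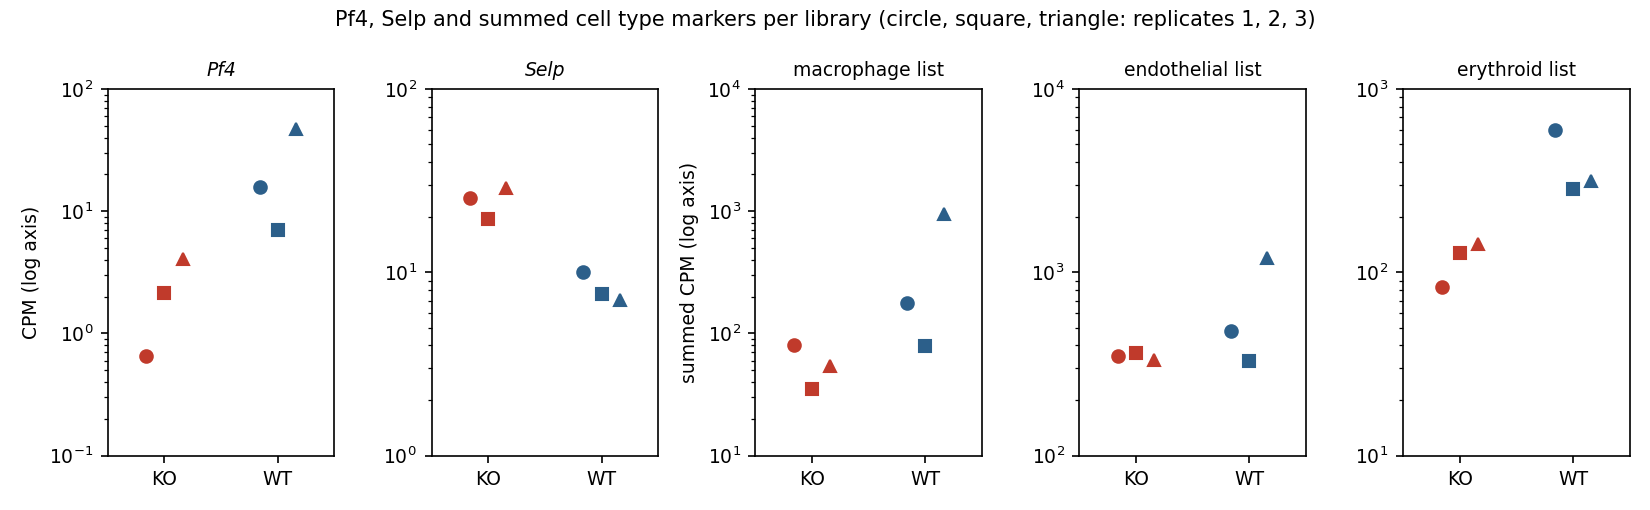
CPM of Pf4 and Selp and summed CPM of the macrophage, endothelial and erythroid marker lists (y axes, all log scale) in each KO library (red) and WT library (blue). WT replicate 3 (blue triangle) is highest for Pf4 at 47.0 CPM, the macrophage list at 948 CPM and the endothelial list at 1192 CPM, but lowest for Selp at 7.09 CPM.

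The wider programme was read from 5 lists of 121 platelet and megakaryocyte genes other than the members. Of the 114 genes tested, 24 passed, 8 higher and 16 lower in KO, or 21.1% beside 11.4% over all genes tested (edgeR). The lists were chosen with earlier results of these data known. The shares were not matched for expression level, so their difference is given as a description. Their median log2 fold change was -0.21, beside -0.02 over all genes tested. Between 12 and 25 of these genes passed when 1 library was left out. There were 12 without WT replicate 1 and 13 without KO replicate 2 or without KO replicate 3. Over all genes tested, those fits called 7.77%, 5.67% and 6.62%.

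Among platelet receptors, 3 of 21 tested genes passed, each lower in KO, and the median was -0.31. That is 14.3% called, near the 11.4% over all genes tested. Itga2, the collagen-binding alpha2 chain, was at 0.433, 0.865 and 0.789 CPM in KO replicates 1 to 3, against 7.82, 4.28 and 9.10 CPM in WT replicates 1 to 3. It fell by 3.33 on the log2 scale (SE 0.88, edgeR, adjusted p = 0.0173). Fcer1g, the Fc receptor gamma chain that carries the GPVI signal and is also made by macrophages and mast cells, fell by 1.78 (SE 0.45, edgeR, adjusted p = 0.0176). Fcer1g was at -0.93 without WT replicate 3 and lost its call there and without any KO library (edgeR, highest adjusted p = 0.212). Itga2 lost its call without WT replicate 1 or WT replicate 3 (edgeR, highest adjusted p = 0.0881).

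Platelet receptors ranged from well read to absent. P2rx1, an ATP-gated channel, averaged 21.7 ± 5.02 CPM in KO and 26.3 ± 2.38 CPM in WT, and Tbxa2r, the thromboxane receptor, 13.2 ± 7.11 CPM in KO and 9.40 ± 1.70 CPM in WT (SD, n = 3 each, edgeR, adjusted p = 0.600 and adjusted p = 0.552). P2ry1, an ADP receptor, averaged 8.25 ± 3.66 CPM in KO and 10.3 ± 4.15 CPM in WT (SD, n = 3 each, edgeR, adjusted p = 0.763). Gp6, the collagen receptor, had 0 counts in all 6 libraries. Of the cytoskeleton list, Tubb1, the platelet beta-tubulin, was at 0.871 ± 0.717 CPM in KO and 3.43 ± 1.79 CPM in WT (SD, n = 3 each, edgeR, adjusted p = 0.339). Gp6, Clec1b, G6b, P2ry12 and Cd226 were the 5 of 26 receptors too low to test, and they, P2rx1, Tbxa2r and P2ry1 were singled out after their values were seen. Clec1b had 0, 0 and 5 counts in KO replicates 1 to 3 and 15, 2 and 166 counts in WT replicates 1 to 3. G6b had 0 counts in each KO library and 0, 2 and 30 counts in WT replicates 1 to 3, and P2ry12 had 6, 0 and 1 counts in KO and 0, 0 and 70 counts in WT. Clec1b, G6b and P2ry12 were read mostly in WT replicate 3, the library with the most macrophage and endothelial transcript, whose part in this was not tested.

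The granule list held the most lower genes. Of 19 tested, 5 passed (26.3%, beside 11.4% over all genes tested), each lower in KO. The list's median was 0.04, so its middle gene did not share that direction. Vwf, von Willebrand factor, was at 91.8, 62.2 and 73.0 CPM in KO replicates 1 to 3, against 127, 155 and 112 CPM in WT replicates 1 to 3. Each KO library was below each WT library, and Vwf fell by 0.79 on the log2 scale (SE 0.17, edgeR, adjusted p = 0.00390). Srgn, the granule proteoglycan serglycin, was at 171 ± 13.9 CPM in KO and 284 ± 18.6 CPM in WT and fell by 0.74 (SE 0.11, edgeR, adjusted p = 0.000235). Slc18a2, the monoamine transporter of dense granules, fell by 1.15, and Mmrn1, the factor V binding protein multimerin 1, by 0.63 (edgeR, adjusted p = 0.0163 and adjusted p = 0.0252). Vwf and Srgn kept their calls whichever library was left out. Slc18a2 lost its call without KO replicate 1, KO replicate 2 or WT replicate 1, and Mmrn1 without KO replicate 3 or WT replicate 1 (edgeR, highest adjusted p = 0.119 and adjusted p = 0.127). The fifth gene was F5, described above.

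Signalling and secretion genes moved in both directions. Of 31 tested, 4 were higher and 3 lower in KO (22.6% called, beside 11.4% over all genes tested), with a median of -0.13. Rasgrp2, the exchange factor that turns on Rap1 for integrin activation, was at 54.6 ± 6.48 CPM in KO and 26.7 ± 7.79 CPM in WT and rose by 1.03 (SE 0.24, edgeR, adjusted p = 0.00797). Rap1b, the small GTPase it acts on, was at 117 ± 22.6 CPM in KO and 192 ± 30.2 CPM in WT and fell by 0.71 (SE 0.15, edgeR, adjusted p = 0.00396). Bin2 rose by 0.81, Unc13d, the granule priming factor, by 0.62 and Tln1, the talin that binds the integrin tail, by 0.37 (edgeR, adjusted p = 0.000210, 0.0185 and 0.0154). Vamp8, the main granule v-SNARE, was at 36.5 ± 6.53 CPM in KO and 71.5 ± 11.7 CPM in WT and fell by 0.97, and Plek, pleckstrin, fell by 0.83 (edgeR, adjusted p = 0.00344 and adjusted p = 0.0181). Rasgrp2 lost its call without KO replicate 3, Tln1 without KO replicate 1 or WT replicate 1, Unc13d without any library but KO replicate 1 or WT replicate 3, and Plek without any library but KO replicate 1 or WT replicate 2 (edgeR, highest adjusted p = 0.0528, 0.0863, 0.144 and 0.0923).

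In the cytoskeleton list 2 of 19 tested genes were higher and 3 lower in KO (26.3% called, beside 11.4% over all genes tested). Myh9, the non-muscle myosin heavy chain of platelets, was at 1367.5 ± 23.6 CPM in KO and 822 ± 123 CPM in WT and rose by 0.73 (SE 0.10, edgeR, adjusted p = 8.12e-05). Cdc42, a small GTPase of platelet release, was at 225 ± 15.1 CPM in KO and 343 ± 9.22 CPM in WT and fell by 0.61 (SE 0.11, edgeR, adjusted p = 0.000726). Rac1 and Zyx, the focal adhesion protein zyxin, each fell by 0.42, and Ptk2, focal adhesion kinase, rose by 0.58 (edgeR, adjusted p = 0.0180, 0.0125 and 0.0458). Zyx lost its call without KO replicate 1, KO replicate 2 or WT replicate 1, Rac1 without any KO library or WT replicate 3, and Ptk2 without any 1 of the 6 libraries and also with upper-quartile scaling (edgeR, highest adjusted p = 0.0576, 0.104 and 0.227).

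Of 24 tested transcription factors of the lineage, 20 did not pass, 2 were higher and 2 lower in KO. That is 16.7% called, beside 11.4% over all genes tested, and the log2 fold changes ran between -0.87 and 0.54. Gata1 was at 14.2, 12.9 and 7.57 CPM in KO replicates 1 to 3 and 10.0, 17.7 and 14.4 CPM in WT replicates 1 to 3 (edgeR, adjusted p = 0.731). Fli1 was at 186 ± 10.9 CPM in KO and 209 ± 22.8 CPM in WT, and Nfe2 at 101 ± 9.70 CPM in KO and 127 ± 14.2 CPM in WT (SD, n = 3 each, edgeR, adjusted p = 0.414 and adjusted p = 0.154). Zfpm1, the GATA1 partner FOG1, was at 346 ± 18.1 CPM in KO and 238 ± 13.2 CPM in WT and rose by 0.54 (SE 0.11, edgeR, adjusted p = 0.00209). Runx1, needed for stem cell emergence and megakaryocyte maturation, was at 160 ± 27.4 CPM in KO and 238 ± 51.6 CPM in WT and fell by 0.57 (SE 0.15, edgeR, adjusted p = 0.0210). Ldb1, the adaptor of GATA complexes, rose by 0.44 (edgeR, adjusted p = 0.0345). Runx1 lost its call without KO replicate 2, KO replicate 3 or WT replicate 1, and Ldb1 without any library but KO replicate 1 or WT replicate 3 (edgeR, highest adjusted p = 0.132 and adjusted p = 0.185).

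**Figure D4:**
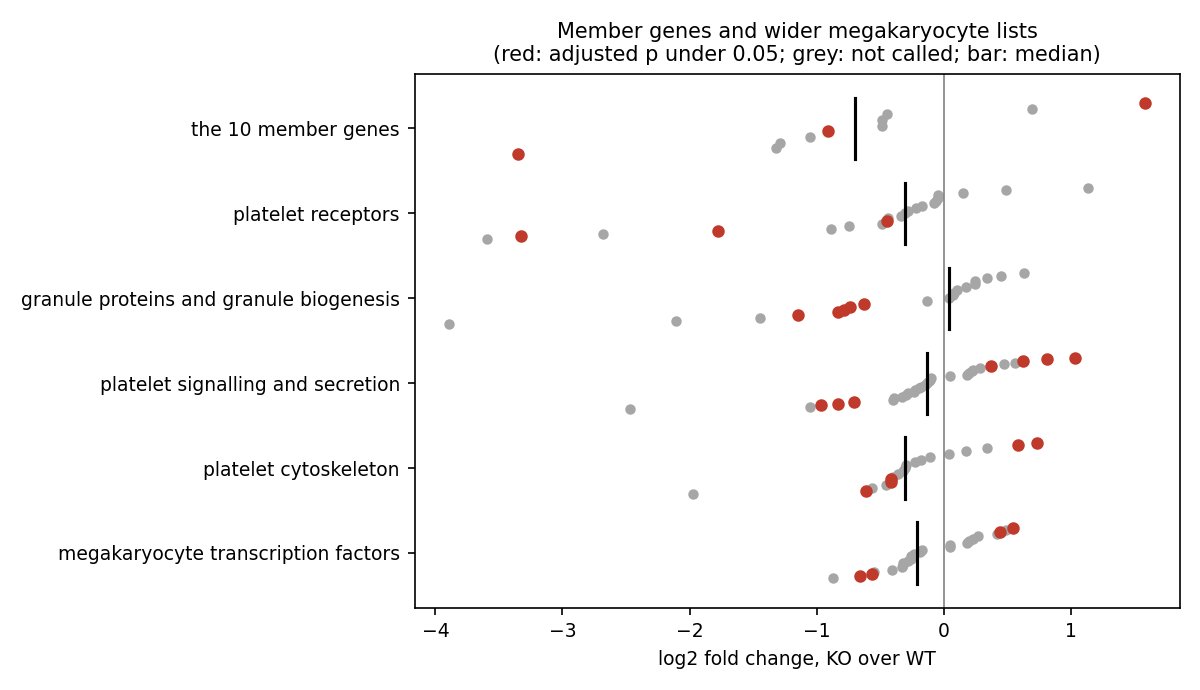
Log2 fold change of KO over WT (x axis) for the 10 genes and for the tested genes of the 5 wider lists (rows), each point a gene, in red where the adjusted p was under 0.05, with the median of each row as a black bar. The called granule genes all lie below 0, between -1.15 and -0.63, while Selp among the 10 lies at 1.58.

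Among 21 relatives of the members, 13 were tested and 1 passed, or 7.69% beside 11.4% over all genes tested. Cxcr2, the receptor through which PPBP and its kin draw neutrophils, was at 16.4, 28.0 and 46.2 CPM in KO replicates 1 to 3, against 9.32, 5.68 and 10.8 CPM in WT replicates 1 to 3. Every KO library was above every WT library, and Cxcr2 rose by 1.81 on the log2 scale (SE 0.38, edgeR, adjusted p = 0.00385). Without KO replicate 3, the highest library, it was 1.37 (edgeR, adjusted p = 0.0760). Neutrophil markers summed to 226 to 260.5 CPM in KO and 401 to 556 CPM in WT. Mast cell and basophil markers summed to 27.0, 30.6 and 68.4 CPM in KO replicates 1 to 3 and 9.42 to 15.8 CPM in WT. The part of these cell types in the Cxcr2 difference was not tested.

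The genes most like the members over the 6 libraries were sought with the mean of the members' standardised log2 CPM as a profile. The 8 genes with the highest Pearson r were Adamts13, Chst14, Cd97, Tmsb4x, Lifr, Clec7a, Glul and Idh1, with r of 0.991 to 0.998. The libraries form 2 groups, so r mixes the group difference with the spread inside groups and is given as a description without a p. These genes were chosen for following a profile that itself differs between the groups, so their levels are given with no test. Adamts13, the protease that cuts von Willebrand factor, was at 16.1, 13.5 and 14.4 CPM in KO replicates 1 to 3, against 28.4, 21.2 and 29.8 CPM in WT replicates 1 to 3. Tmsb4x, the actin-binding thymosin beta 4, averaged 306 ± 27.2 CPM in KO and 666 ± 125 CPM in WT (SD, n = 3 each, as for the next genes). Clec7a, the myeloid receptor dectin-1, averaged 0.811 ± 0.427 CPM in KO and 13.7 ± 7.32 CPM in WT. Lifr, a cytokine receptor chain, averaged 1.88 ± 0.376 CPM in KO and 18.9 ± 11.3 CPM in WT. Cd97, a leukocyte adhesion receptor, averaged 16.4 ± 2.82 CPM in KO and 45.6 ± 14.4 CPM in WT. Idh1, the cytosolic isocitrate dehydrogenase, averaged 13.1 ± 2.47 CPM in KO and 39.5 ± 14.6 CPM in WT. Glul, glutamine synthetase, averaged 110.9 ± 8.68 CPM in KO and 198.7 ± 17.7 CPM in WT, and Chst14 averaged 7.12 ± 0.391 CPM in KO and 11.9 ± 1.43 CPM in WT.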

How the data were processed

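RNA was sequenced from 3 KO and 3 WT libraries of fetal liver HSCs, prepared with a stranded total RNA kit for pico inputs from a few ng of RNA, per the labels' protocols. The authors deposited whole-number read counts per gene symbol, not normalized, and RPKM values. Per the submitters' processing notes, TopHat and Cufflinks were used with mm9. No source used here gives tool versions, the read counter, the annotation or the strand setting.

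Counts were filtered with filterByExpr, scaled by TMM and tested between groups with the quasi-likelihood F test of edgeR 4.0.16 (robust, no other term, R 4.3.3). Adjustment (Benjamini-Hochberg) spanned all 12204 tested genes, and 0.05 was the cutoff. CPM used the TMM library sizes. The SE of a log2 fold change was its size divided by the square root of F. DESeq2 1.42.0, limma 3.58.1 (voom, and log2 of RPKM plus 1 or 0.1), other scalings, no filter, a replicate block and fits without 1 library were alternatives. On simulated counts the procedure recovered 42.9% of genes changed by 1 on the log2 scale and 74.7% of genes changed by 2, with 3.42% of calls false. A gene that did not pass may therefore still differ. Replicate pairs differed by a chi-square of 21.9 to 44.4 per degree of freedom, more than counting error alone would give. Each library counted as 1 sample, but this spread does not show that libraries came from different embryos. The limit for a count of 0 is 3 counts and covers counting error only, since reads without molecular identifiers are not independent molecules.

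Named were all members, Uqcrfs1, preset genes (Gata1, Fli1, Runx1, Nfe2, Vwf and Tubb1), and up to 5 called genes per list and direction by p, leading markers, neighbouring genes and the 8 genes most like the members' mean profile. Some genes that this rule selects are counted but not reported here by name. Marker lists covered HSC, erythroid, macrophage, neutrophil, mast cell, endothelial, hepatoblast and lymphoid genes. Members and lists were chosen with earlier results of these data known. The GENCODE annotation of GRCm38 served only for neighbouring genes, and the promoter sequences are on GRCm38.p6, while the counts were made on mm9.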

Additional observations from a re-analysis of the deposited data

How the results depend on the processing

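Scaling by DESeq2 size factors or by the upper quartile, DESeq2's Wald test and no filter on low counts called the same 3 members (Pf4, Gp9 and Selp), and limma-voom 2 (Gp9 and Selp). With limma on log2(RPKM + 1) 583 genes, 0 members and 7 genes of the wider lists were called, and with log2(RPKM + 0.1) 560, 0 and 8, against 1391, 3 and 24 with edgeR on the counts. The cause was not tested. Over the fits without 1 library, 712 to 1263 genes, 1 to 3 members and 12 to 25 genes of the wider lists were called. The log2 fold change of Gp1bb ran from -0.98 to 0.18 over the fits without 1 library, with 0.13 without KO replicate 1 and 0.18 without WT replicate 3, and that of F2rl2 was -0.05 with limma on log2(RPKM + 1) and -0.05 with log2(RPKM + 0.1). Among 29 called genes that the naming rule selects, 10 passed in each fit without 1 library and 5 in every alternative run.

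Same-numbered KO and WT libraries did not deviate together (correlations of 0.022, 0.012 and -0.003). With 3 libraries per group this cannot exclude a pairing, and no source used here states whether the numbers pair libraries. They were treated as unpaired in the main fit. With the replicate block, 1341 genes, 2 members (Pf4 and Selp) and 24 genes of the wider lists were called (edgeR). Gp9 then had an adjusted p of 0.0656 and Pf4 an adjusted p of 0.000678 (edgeR). Low counts limit Ppbp, Gp1bb, Gp5 and F2rl2, for which the SE was over 1 on the log2 scale.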

Other observations

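Hepatoblast and lymphoid markers were also read beside the members. The 10 hepatoblast markers summed to 67.2 to 118.7 CPM in KO and 128.8 to 204 CPM in WT, and 2 of the 8 tested were lower in KO, Ttr and Trf. Ttr, a liver secretory transcript, had 0 counts in each KO library and 108, 9 and 20 counts in WT replicates 1 to 3. Of the lymphoid markers only Flt3 was tested, and it was lower in KO, at a log2 fold change of -0.61 (edgeR, adjusted p = 0.0322), while Cd3e and Dntt had 0 counts in all 6 libraries.

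For most members the deposited RPKM moved with the CPM. The RPKM of 1 CPM of F2rl2 ran from 0.795 in KO replicate 1 to 4.53 in WT replicate 2, where the gene had 5 counts and 2.11 RPKM. For Gp1ba it ran from 0.280 in WT replicate 1 to 0.862 in WT replicate 3. For Selp it was 0.139 to 0.244 in KO and 0.182 to 0.205 in WT.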
